A study of Homo sapiens with 4 samples.

Results

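The collagen genes of A549 cells were taken as the rows of the count files whose gene symbol reads COL, a number, A and a number. There were 44 such genes among the 50868 genes counted, and each was found once in every library. A549 is a human lung adenocarcinoma line, and it was compared here between control cells (2 libraries) and cells made to overexpress the deubiquitinase USP12 (2 libraries). The study's methods place tagged human USP12 in a pLVX lentiviral vector, and the labels name no drug or other agent for either group. Libraries are called control 1, control 2, USP12 1 and USP12 2 after their replicate numbers, which pair nothing by themselves. Whether the overexpressing line was a clone or a pool, and whether the replicates were separate cultures, is not given in the sources used here, so that p-values measure only the spread between these libraries. In bulk RNA, fewer cells of a type and less RNA per cell cannot be told apart.

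Collagens are secreted proteins of several chains wound into a triple helix with glycine at regular steps along each chain. Fibrillar collagens form the cables of connective tissue, type IV collagen forms the sheet of the basement membrane under epithelia, type VII collagen ties that membrane to the tissue beneath it, and other types decorate fibrils, span the cell membrane or sit in the basement membrane zone. Chains are encoded by separate genes, and a molecule is either made of identical chains or needs the products of several genes. In lung, alveolar epithelium rests on a basement membrane rich in type IV collagen, while fibroblasts make most of the fibrillar type I and type III collagen.

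The libraries held between 14280081 and 16305356 counts, so that a level of 3 counts, used as the floor, was between 0.166 and 0.227 CPM, the count relative to the library's total after edgeR's TMM scaling. These floors cover counting error only. USP12 itself was at 15.2 CPM in control 1, 34.4 in control 2, 1745 in USP12 1 and 2235 in USP12 2, a log2 fold change of 6.32 (SE 0.57, edgeR quasi-likelihood adjusted p = 0.0975). The heading of control replicate 1 carries a date-like prefix that differs from the one shared by the other 3 libraries. Across all genes tested, the log2 difference between control replicates 1 and 2 was larger at higher transcript GC content (Pearson r = 0.55, Spearman rho = 0.60, across 15094 genes, which are not independent and share both libraries). Across the 26 tested collagen genes alone these values were 0.10 and 0.24. The tested collagen transcripts had a median GC content of 60.8%, against 49.02% over all tested genes. Of the 26 tested collagen genes, 23 were higher in control replicate 1 than in control replicate 2, with a median log2 difference of 0.72 against -0.01 for all genes. The 2 USP12 libraries differed by a median of -0.30 for the same 26 genes. Many values below moved when 1 control library was left out. All 5 epithelial markers listed were above the floor, and they summed to 9638 CPM in control 1, 5060 in control 2, 4275 in USP12 1 and 3976 in USP12 2. Of these, KRT19 met the criterion described below downwards (log2 fold change -2.14, SE 0.66, edgeR quasi-likelihood adjusted p = 0.438, and 0.0173 in the DESeq2 Wald test). KRT8, KRT18 and EPCAM were lower in both USP12 libraries without meeting it. The groups overlapped in CDH1, at 130 CPM in control 1, 99.1 in control 2, 76.5 in USP12 1 and 134 in USP12 2. Of 7 fibroblast and mural markers, DCN and FAP were at 0 in every library, and the summed level of the list was 48.3 CPM in control 1, 6.37 in control 2, 51.8 in USP12 1 and 43.1 in USP12 2, with ACTA2 as its largest part. The 4 endothelial markers summed to 15.4 CPM in control 1, 8.59 in control 2, 0.432 in USP12 1 and 1.45 in USP12 2, with VWF and TEK at or under the floor. CDH5, the vascular cadherin, was lower under USP12 (log2 fold change -4.94, SE 0.82, edgeR quasi-likelihood adjusted p = 0.182, and 4.3e-05 in the edgeR exact test, which called 262 of 15222 genes lower). CDH5 had 136 counts in control 1, 96 in control 2, 2 in USP12 1 and 5 in USP12 2. It thus passed the filter on low counts, with a minimum count of 10, only through the control group and had to differ. PECAM1 met the criterion downwards (-2.69). The 4 leukocyte markers summed to between 49.2 and 89.8 CPM, almost all of it CD68, with PTPRC and CD3E at or near 0. The part of these marker shifts in the collagen values was not tested.

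Part of the collagen family was detected in A549 cells. Of the 44 genes, 26 had enough counts to be tested, and 18 did not. Of these 18, 5 were at 0 in all 4 libraries (COL10A1, COL19A1, COL22A1, COL23A1 and COL25A1), 6 had at most 3 counts in any library, and 7 exceeded 3 counts in at least 1 library, the highest being 41 counts of COL3A1. To compare genes with each other, counts were divided by the length of the canonical transcript and scaled to a fixed total in each library (TPM, without TMM factors). By mean TPM over the 4 libraries the order was COL5A2 (82.1), COL18A1 (62.3), COL4A2 (59.99), COL7A1 (28.3), COL6A1 (15.98), COL4A1 (15.8), COL6A2 (12.03), COL5A1 (11.4), COL27A1 (6.90) and COL4A6 (6.76). The first 4 of these held 70.1% and 77.7% of all collagen TPM under control and 67.7% and 66.96% under USP12. Neighbours such as COL18A1 and COL4A2, or COL6A1 and COL4A1, overlapped across libraries and have no fixed order.

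**Figure D1:**
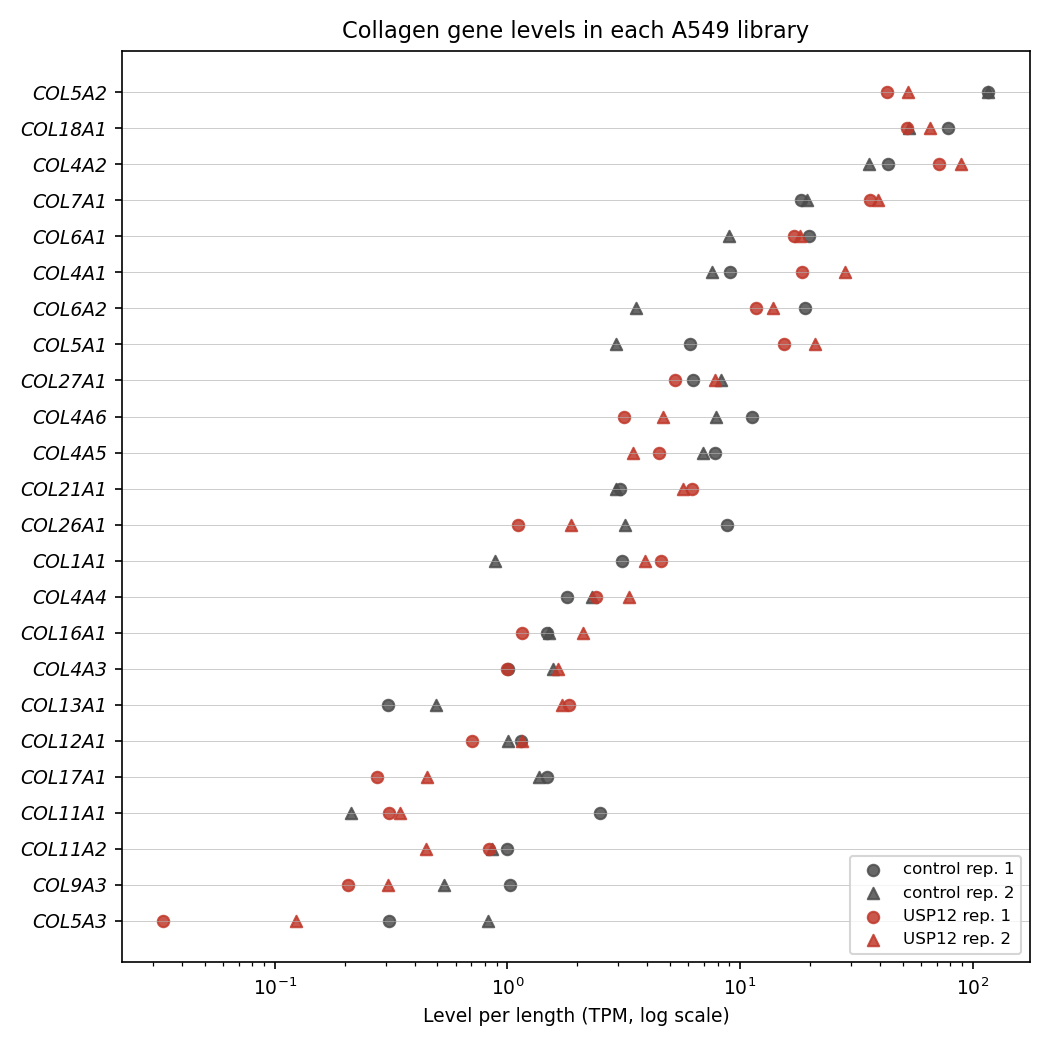
Level per length (TPM, log axis) of the 24 tested collagen genes with counts in every library, ordered by mean level; each point is 1 library, with circles and triangles for replicates 1 and 2. COL5A2 reaches 116 and 117 TPM in the control libraries (grey) and 42.9 and 52.5 in the USP12 libraries (red), whereas COL4A2 and COL7A1 lie higher in the red libraries.

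The summed collagen level overlapped between the groups, while its make-up differed. The 44 genes summed to 365 and 290.3 TPM under control and 300.3 and 368 TPM under USP12. COL5A2 made up 31.8% and 40.3% of collagen TPM under control and 14.3% and 14.3% under USP12. COL4A2 went the other way, with shares of 11.9% and 12.3% against 23.9% and 24.2%. The share of COL7A1 was 4.998% and 6.70% against 12.1% and 10.7%. In each of these 3 genes the groups did not overlap, and the most abundant collagen transcript was COL5A2 in both control libraries and COL4A2 in both USP12 libraries. With 2 libraries a group, an exact two-sided permutation test of such a value cannot go below p = 0.333.

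Gene by gene, 10 collagen genes met a criterion of an unadjusted p of 0.05 or less with a log2 fold change of at least 1 in size. The study's text gives these limits for lower genes without saying whether p was adjusted, and here they were applied to unadjusted p in both directions. COL4A1, COL4A2, COL5A1, COL7A1 and COL13A1 were higher in USP12 cells, and COL5A2, COL5A3, COL9A2, COL17A1 and COL26A1 were lower. That is 5 of 26 tested genes in each direction, where 2.92% of all 15222 tested genes met the criterion upwards and 4.41% downwards. No collagen gene had an adjusted p under 0.05 in edgeR's quasi-likelihood test (0 of 26, against 0.00% of all genes), and the smallest, that of COL4A1, was 0.372. At an unadjusted p under 0.05 there were 10 collagen genes, against 7.59% of all genes. COL5A1 had an adjusted p under 0.05 in other tests on the same counts, 0.0466 in the edgeR exact test (which called 1.10% of all genes higher) and 0.0215 in the DESeq2 Wald test (0.874% higher). The groups did not overlap in 17 of the 26 genes, against 36.5% of all tested genes, with USP12 above control in 9 of them. The median log2 fold change was 0.08 over the 26 genes and -0.06 over all genes. COL5A3, COL9A2, COL9A3 and COL15A1 passed the filter on low counts only through the group in which they were high, so they had to differ, and the counts over the 26 genes include them. COL13A1 had 9 counts in control 1 and 14 in control 2, against 56 in USP12 1 and 49 in USP12 2. Its pass of the filter, with a minimum count of 10, thus also drew on the USP12 libraries. The counts by the criterion turned on single libraries. The median log2 fold change of the 26 genes was 0.52 when control 1 was left out and -0.32 when control 2 was. It was 0.20 when USP12 1 was left out and -0.13 when USP12 2 was. Over all genes these medians were 0.02, 0.08, -0.06 and -0.08, in that order. Each of these fits leaves 1 library in a group, so its counts of genes passing are not compared here.

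**Figure D2:**
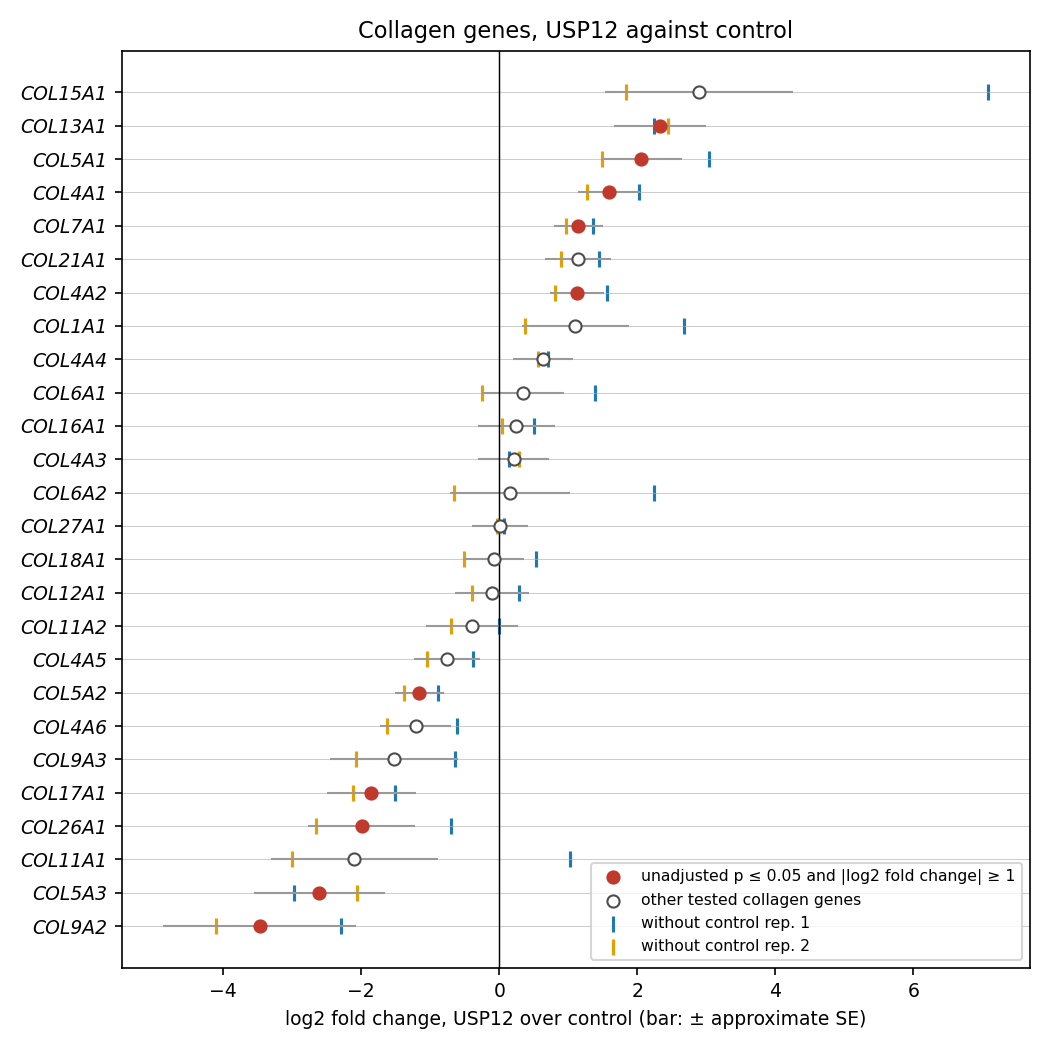
Log2 fold change of the 26 tested collagen genes, USP12 over control, with bars for the approximate standard error; red points met the criterion, and the blue and orange ticks give the value without control replicate 1 or 2. COL13A1 and COL5A1 lie at 2.33 and 2.06, COL9A2 at -3.47, and for COL6A2 and COL11A1 the ticks fall on opposite sides of 0.

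Type IV collagen, the network of the basement membrane, is made by 6 genes that lie as 3 head-to-head pairs. COL4A1 and COL4A2, which supply the common type IV molecule found in nearly all basement membranes, were higher in both USP12 libraries. COL4A3 and COL4A4, partners with COL4A5 in the glomerular and alveolar form, had log2 fold changes of 0.21 and 0.63. COL4A5 and COL4A6, partners in the form of skin and smooth muscle, were lower in both USP12 libraries.

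On chromosome 13 of GRCh38, COL4A1 (chr13:110148963-110307157, minus strand) and COL4A2 (chr13:110305812-110513209, plus strand) start 127 bases apart on their canonical transcripts and run away from each other. The canonical starts of COL4A4 (chr2:227002714-227164453, minus) and COL4A3 (chr2:227164624-227314792, plus) are 419 bases apart, and those of COL4A6 (chrX:108155607-108439497, minus) and COL4A5 (chrX:108439838-108697545, plus) are 1416 bases apart, although the annotated bounds of these genes are 340 bases apart. The bases beside these starts are shown because the genes of each pair run away from each other from nearby starts. They come from RefSeq (GRCh38.p14), plus strand, first the whole stretch between the COL4A1 and COL4A2 starts (chr13:110307158-110307283), then the 250 bases before COL4A3 (chr2:227164374-227164623) and before COL4A5 (chrX:108439588-108439837). Only the first stretch spans the distance between both canonical starts of a pair. The windows before COL4A3 and COL4A5 do not reach the canonical starts of COL4A4 and COL4A6. Capitals mark CCAAT and GGGCGG, or their reverse complements.
COL4A1/COL4A2: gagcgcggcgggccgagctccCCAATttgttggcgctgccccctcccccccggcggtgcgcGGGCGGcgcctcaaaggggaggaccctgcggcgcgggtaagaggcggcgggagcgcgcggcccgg
COL4A3: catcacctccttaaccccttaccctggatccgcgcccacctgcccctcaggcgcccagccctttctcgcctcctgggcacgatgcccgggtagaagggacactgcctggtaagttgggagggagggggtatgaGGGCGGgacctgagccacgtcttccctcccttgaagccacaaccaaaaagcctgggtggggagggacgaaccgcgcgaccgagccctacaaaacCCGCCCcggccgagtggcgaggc
COL4A5: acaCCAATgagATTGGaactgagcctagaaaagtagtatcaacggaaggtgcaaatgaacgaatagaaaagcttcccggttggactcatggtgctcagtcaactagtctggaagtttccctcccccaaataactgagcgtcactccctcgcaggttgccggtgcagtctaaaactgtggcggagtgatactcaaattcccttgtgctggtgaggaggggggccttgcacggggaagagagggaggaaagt

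The stretch between COL4A1 and COL4A2 was 80.2% G and C and held CCAAT and GGGCGG 1 time each, motifs present on either strand in 21.9% and 34.6% of the windows of 126 bases before 27305 RefSeq gene starts. Before COL4A3 there were 2 matches to GGGCGG and none to CCAAT, and before COL4A5 2 to CCAAT and none to GGGCGG. In windows of 250 bases, 42.3% of starts held GGGCGG and 33.0% CCAAT. The motif TATAAA, held by 11.1% of the windows of 250 bases and 6.23% of those of 126, was in none of the 3 printed stretches. The table of starts covered 32 of the 44 collagen genes, of which 18 held GGGCGG, 9 CCAAT and 5 TATAAA within 250 bases. These matches are a description of letters and were not tested against the expression values.

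COL4A1 was at 42.00 CPM in control 1, 24.8 in control 2, 84.3 in USP12 1 and 117 in USP12 2. Its fold change was 3.01-fold, a log2 fold change of 1.59 (SE 0.44, edgeR quasi-likelihood adjusted p = 0.372). COL4A2, its partner chain, was at 198 CPM in control 1, 115 in control 2, 323 in USP12 1 and 362 in USP12 2, a log2 fold change of 1.13 (SE 0.40, edgeR quasi-likelihood adjusted p = 0.538). In both genes every USP12 library was above every control library, and the log2 differences between the control libraries (0.76 and 0.78) were smaller than the group differences. The log2 fold change was 2.02 and 1.57 without control replicate 1, and 1.27 and 0.80 without control replicate 2, which takes COL4A2 below the criterion. Per length, COL4A2 exceeded COL4A1 4.78-fold and 4.73-fold under control and 3.89-fold and 3.15-fold under USP12. Antisense genes of COL4A2 cover 95 of its exonic bases on the opposite strand, so a share of its count could belong to them.

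COL4A5, on chromosome X, was at 36.1 CPM in control 1, 22.6 in control 2, 20.4 in USP12 1 and 14.3 in USP12 2, a log2 fold change of -0.76 (SE 0.48, edgeR quasi-likelihood adjusted p = 0.864). COL4A6, its neighbour, was at 53.5 CPM in control 1, 26.4 in control 2, 14.8 in USP12 1 and 19.7 in USP12 2, a log2 fold change of -1.21 (SE 0.51, edgeR quasi-likelihood adjusted p = 0.674). The unadjusted p of COL4A6 was 0.0548, just outside the criterion. Both genes were lowest in the USP12 libraries, but control 2 lay close to them, and without control replicate 1 the log2 fold changes were -0.38 and -0.61. COL4A3 was at 5.75 CPM in control 1, 6.32 in control 2, 5.61 in USP12 1 and 8.38 in USP12 2 (log2 fold change 0.21, SE 0.51, edgeR quasi-likelihood adjusted p = 0.976), so the groups overlapped. COL4A4 was at 12.8 CPM in control 1, 11.5 in control 2, 16.8 in USP12 1 and 20.9 in USP12 2 (log2 fold change 0.63, SE 0.44, edgeR quasi-likelihood adjusted p = 0.880), with both USP12 libraries above both control libraries. The sum of COL4A1 and COL4A2 TPM was 2.74 and 2.93 times that of COL4A5 and COL4A6 under control and 11.8 and 14.4 times under USP12 (exact two-sided permutation test, p = 0.333, the smallest that 2 against 2 libraries allow). This ratio is taken within a library, so that scaling between libraries does not enter it. A difference between libraries along GC content could still enter it. The transcripts of COL4A1 and COL4A2 had GC contents of 55.2% and 61.8%, and those of COL4A5 and COL4A6 50.8% and 54.7%. The part of GC content in this ratio was not tested.

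**Figure D3:**
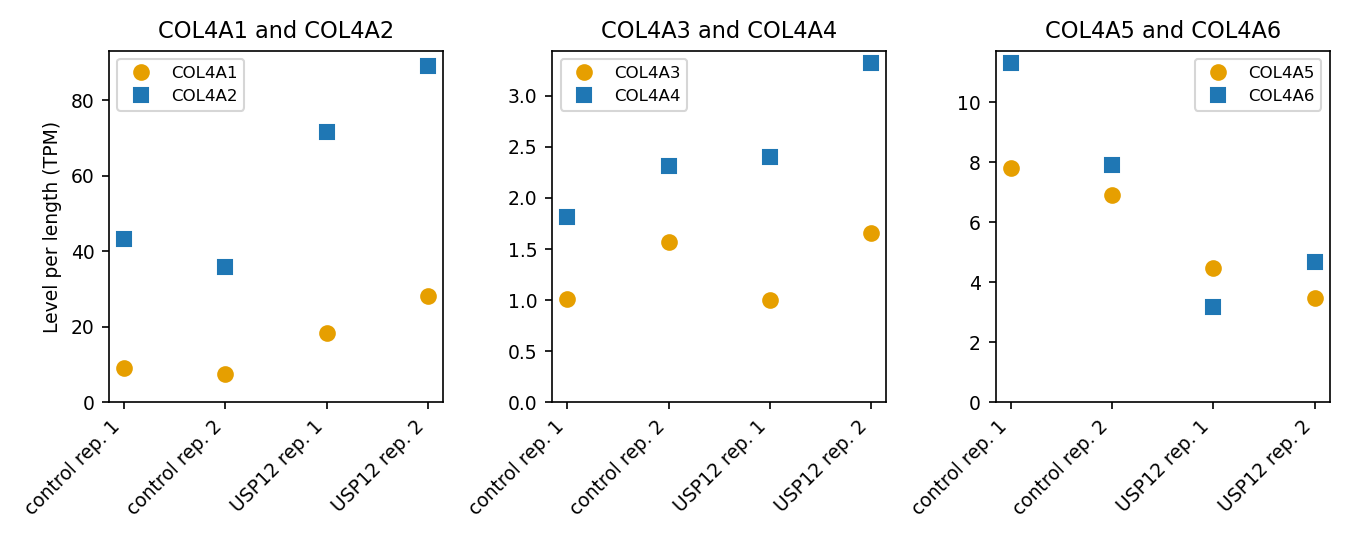
Level per length (TPM, axes from 0) of the 3 head-to-head pairs of type IV collagen genes in the 4 libraries; orange circles and blue squares are the genes of a pair. COL4A2 lies at 43.4 and 35.8 TPM under control and 71.7 and 89.04 under USP12, and COL4A6 at 11.3 and 7.89 against 3.17 and 4.67.

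Among the fibrillar collagens, the chains of type V collagen stood on opposite sides. Type V collagen is a minor fibril component that regulates the start and the diameter of collagen fibrils, and its main molecule holds chains from both COL5A1 and COL5A2. COL5A1 (chr9:134641803-134844843) was at 36.5 CPM in control 1, 12.4 in control 2, 91.2 in USP12 1 and 111 in USP12 2, a log2 fold change of 2.06 (SE 0.59, edgeR quasi-likelihood adjusted p = 0.394). COL5A2 (chr2:189031898-189225312) was at 562 CPM in control 1, 399 in control 2, 205 in USP12 1 and 226 in USP12 2, a log2 fold change of -1.16 (SE 0.35, edgeR quasi-likelihood adjusted p = 0.429). Neither gene's groups overlapped. The control libraries differed by 1.55 on the log2 scale for COL5A1 and by 0.49 for COL5A2, and the log2 fold change was 3.03 and -0.89 without control replicate 1 and 1.48 and -1.37 without control replicate 2, so that COL5A2 met the size limit only with control replicate 1 present. Per length, COL5A2 exceeded COL5A1 19.05-fold and 39.9-fold under control and 2.78-fold and 2.51-fold under USP12 (exact two-sided permutation test, p = 0.333, the smallest possible). The remaining type V gene, COL5A3, had 18 counts in control 1, 46 in control 2, 2 in USP12 1 and 7 in USP12 2 (log2 fold change -2.61, SE 0.94, edgeR quasi-likelihood adjusted p = 0.564). These are low counts, and COL5A3 was below the other type V genes per length in every library.

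**Figure D4:**
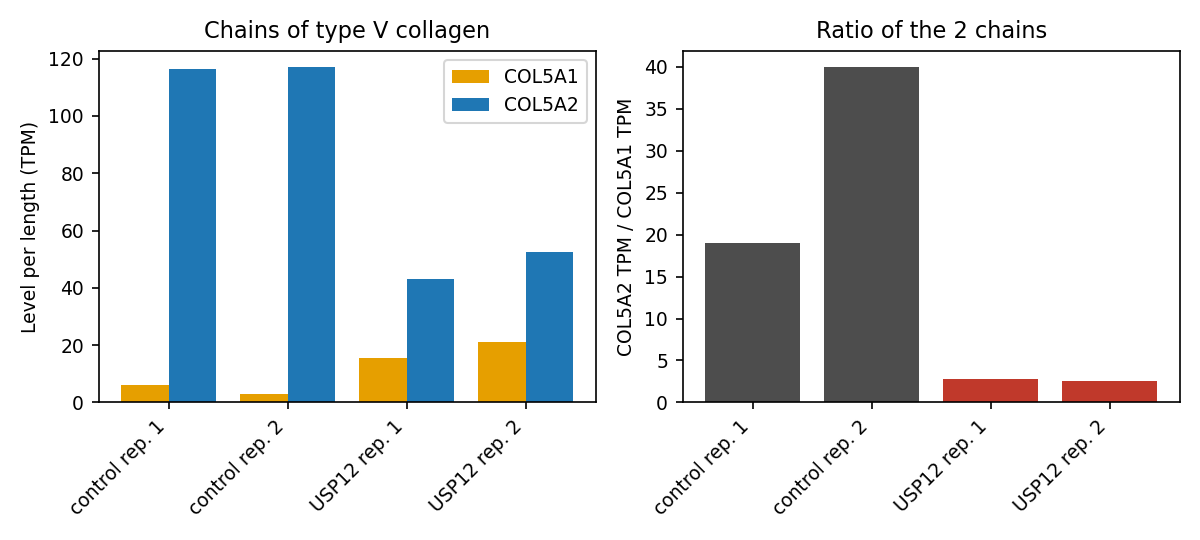
Left, level per length (TPM) of COL5A1 (orange) and COL5A2 (blue) in each library; right, their ratio, with grey bars for control and red bars for USP12 libraries, both axes from 0. The ratio is 19.05 and 39.9 under control and 2.78 and 2.51 under USP12.

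The chains of type I collagen, the main collagen of scar and bone, were expressed unevenly. COL1A1 was at 13.01 CPM in control 1, 2.60 in control 2, 18.9 in USP12 1 and 14.6 in USP12 2, a log2 fold change of 1.10 (SE 0.78, edgeR quasi-likelihood adjusted p = 0.887). Control replicate 2 stood apart at the low end, and the log2 fold change of COL1A1 was 0.37 without it, against 2.68 without control replicate 1. COL1A2, the other chain, had 0 counts in control 1, 2 in control 2, 0 in USP12 1 and 0 in USP12 2. COL3A1, which lies 19.2 kb from COL5A2 tail to tail on chromosome 2, had 41 counts in control 1, 0 in control 2, 10 in USP12 1 and 7 in USP12 2 and was not tested. In COL11A1, a cartilage and tumour stroma collagen, control replicate 1 alone was high, with 12.9 CPM in control 1, 0.776 in control 2, 1.58 in USP12 1 and 1.59 in USP12 2. Its log2 fold change was -2.10 with all libraries and 1.03 without control replicate 1. COL11A2 (log2 fold change -0.40) and COL27A1 (0.01) overlapped between the groups. COL27A1 was at 34.7 CPM in control 1, 32.2 in control 2, 28.7 in USP12 1 and 38.5 in USP12 2. COL2A1, the collagen of cartilage, had at most 2 counts, and COL24A1 at most 8.

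Collagens that anchor epithelial cells differed among themselves. COL7A1 (chr3:48564073-48595329), the anchoring fibril collagen below the basement membrane, was at 119 CPM in control 1, 89.8 in control 2, 234 in USP12 1 and 229 in USP12 2. This was a log2 fold change of 1.15 (SE 0.35, edgeR quasi-likelihood adjusted p = 0.436), with the USP12 libraries nearly equal to each other and above both control libraries. The log2 fold change stayed close to that value with either control library left out (1.37 without replicate 1, 0.97 without replicate 2, the latter just under the criterion). COL17A1 (chr10:104031286-104085880), a membrane-spanning collagen of the hemidesmosome, was at 5.90 CPM in control 1, 3.82 in control 2, 1.08 in USP12 1 and 1.59 in USP12 2, a log2 fold change of -1.85 (SE 0.64, edgeR quasi-likelihood adjusted p = 0.527). COL13A1 (chr10:69801880-69964275), a membrane-spanning collagen of cell adhesion sites, was at 0.681 CPM in control 1, 0.776 in control 2, 4.03 in USP12 1 and 3.39 in USP12 2, a log2 fold change of 2.33 (SE 0.67, edgeR quasi-likelihood adjusted p = 0.397). Both membrane-spanning genes were below 10 CPM in every library, and in both the groups did not overlap. The other members of that class, COL23A1 and COL25A1, were at 0 in all libraries, which allows a level of up to 0.166 to 0.227 CPM.

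Type VI collagen, which forms beaded filaments around cells, differed more between the control libraries than between the groups. COL6A1 was at 58.6 CPM in control 1, 18.8 in control 2, 50.2 in USP12 1 and 48.1 in USP12 2, a log2 fold change of 0.34 (SE 0.59, edgeR quasi-likelihood adjusted p = 0.964). COL6A2, which lies 93.1 kb from COL6A1 in the same direction on chromosome 21, was at 46.4 CPM in control 1, 6.15 in control 2, 28.1 in USP12 1 and 30.1 in USP12 2, a log2 fold change of 0.15 (SE 0.87, edgeR quasi-likelihood adjusted p = 0.985). In both genes control replicate 2 was low and control 1 was above both USP12 libraries. Leaving out control replicate 1 gave COL6A1 a log2 fold change of 1.38 and leaving out control replicate 2 gave -0.24, and for COL6A2 these values were 2.24 and -0.66, so that the sign depends on which control library is used. For COL6A2 both of these fits had a quasi-likelihood adjusted p under 0.05 in edgeR (0.00591 and 0.0482), with opposite signs. ACTA2, the most abundant of the fibroblast and mural markers, was also lowest in control replicate 2, at 29.8 CPM in control 1, 4.88 in control 2, 48.6 in USP12 1 and 40.7 in USP12 2. LUM was lowest there too, but the list did not move as one. THY1 was at 16.6 CPM in control 1, 0.997 in control 2, 1.58 in USP12 1 and 0.416 in USP12 2. PDGFRA was at 0 in control 1, and PDGFRB at 0 in both control libraries. The part of these markers in the type VI values was not tested. COL6A3, whose chain joins those of COL6A1 and COL6A2 in the common type VI molecule, had 1 count in control 1, 3 in control 2, 5 in USP12 1 and 6 in USP12 2. COL6A5 and COL6A6 had at most 1 count.

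COL18A1, a multiplexin of basement membranes whose end fragment is endostatin, ranked after COL5A2 by mean TPM over the 4 libraries, although COL4A2 was above it in both USP12 libraries, and its groups overlapped. It was at 299.7 CPM in control 1, 144 in control 2, 197 in USP12 1 and 223 in USP12 2, a log2 fold change of -0.08 (SE 0.44, edgeR quasi-likelihood adjusted p = 0.985). Its sign also turned on the control library, with 0.54 without control replicate 1 and -0.50 without control replicate 2. Exons of SLC19A1 on the opposite strand cover 1563 exonic bases of COL18A1, and whether counting used strand is not given in the sources used here, so its count is uncertain. In all, 11 collagen genes share exonic bases with a gene on the opposite strand. COL15A1, the other multiplexin, had 4 counts in control 1, 0 in control 2, 13 in USP12 1 and 18 in USP12 2 (log2 fold change 2.899, SE 1.36, edgeR quasi-likelihood adjusted p = 0.748).

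The fibril-associated collagens, which sit on the surface of fibrils, were low throughout. The 10 genes summed to between 6.60 and 9.49 TPM in the 4 libraries, and 5 of them were tested. COL21A1 was at 9.004 CPM in control 1, 6.10 in control 2, 18.2 in USP12 1 and 14.96 in USP12 2, a log2 fold change of 1.14 (SE 0.48, edgeR quasi-likelihood adjusted p = 0.674), and its unadjusted p of 0.0538 was just outside the criterion. COL12A1 (log2 fold change -0.10) and COL16A1 (0.25) overlapped between the groups. COL9A2 had 34 counts in control 1, 13 in control 2, 0 in USP12 1 and 4 in USP12 2, and its fitted log2 fold change of -3.47 (SE 1.40, edgeR quasi-likelihood adjusted p = 0.646) depends on the handling of such low counts. COL9A3, a chain of the same type IX collagen, had 24 counts in control 1, 12 in control 2, 5 in USP12 1 and 7 in USP12 2 (log2 fold change -1.52, SE 0.92, edgeR quasi-likelihood adjusted p = 0.850, with -0.64 without control 1 and -2.07 without control 2), and COL9A1 had at most 1 count. COL26A1 was at 18.5 CPM in control 1, 4.77 in control 2, 2.30 in USP12 1 and 3.53 in USP12 2, a log2 fold change of -1.99 (SE 0.77, edgeR quasi-likelihood adjusted p = 0.611). Control replicate 1 was far above the other 3 libraries in COL26A1, and without it the log2 fold change was -0.70. The 3 short-chain network genes were too low to test (COL8A1 with at most 5 counts, COL8A2 with at most 3, COL10A1 at 0).

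An offset for transcript GC content, added after the control libraries had been seen to differ along it, was tried for all genes. It gave 1.72 for COL4A1, 1.46 for COL4A2, 2.47 for COL5A1 and 1.43 for COL7A1, all above the values without it. COL5A2, whose transcript has a GC content of 48.3%, went to -1.34. For COL6A1 and COL6A2 it gave 0.83 and 0.85, and for COL18A1 0.33. No collagen gene had an adjusted p under 0.05 in that fit of edgeR's quasi-likelihood test (0 of 26, with 11 at an unadjusted p under 0.05, against 11.2% of all genes in that fit), and the smallest was 0.0930 for COL5A1. With the offset 6 collagen genes met the criterion upwards and 4 downwards, against 3.55% and 5.07% of all genes.

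The proteins that modify, cut, bind and degrade collagen were read from a list of 52 genes, of which 39 were tested. Procollagen is hydroxylated and glycosylated in the endoplasmic reticulum, folded with the help of chaperones, trimmed of its propeptides outside the cell and crosslinked by lysyl oxidases. In edgeR's quasi-likelihood test 0 of the 39 had an adjusted p under 0.05, against 0.00% of all genes. An unadjusted p under 0.05 was found for 5 of the 39, against 7.59% of all genes. By the criterion 3 were higher and 2 lower in USP12 cells, where 2.92% and 4.41% of all genes were. The groups did not overlap in 9 genes upwards and 11 downwards, where 36.5% of all genes did not overlap in one direction or the other. The median log2 fold change of the 39 genes was -0.09 with all libraries. Leaving out control 1 moved this median to 0.28, and leaving out control 2 moved it to -0.37. With USP12 1 or USP12 2 left out it was -0.02 and -0.15. The all-gene medians of these 4 fits were 0.02, 0.08, -0.06 and -0.08.

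Of the 14 tested genes of hydroxylation and glycosylation, 2 met the criterion downwards and 0 upwards, against 4.41% and 2.92% of all genes. The groups did not overlap in 2 upwards and 7 downwards, against 36.5% of all genes in either direction. P4HB, the beta subunit of the collagen prolyl hydroxylase and an abundant disulfide isomerase, was at 1799 CPM in control 1, 1087 in control 2, 717 in USP12 1 and 677 in USP12 2, a log2 fold change of -1.05 (SE 0.36, edgeR quasi-likelihood adjusted p = 0.521). COLGALT1, which adds galactose to hydroxylysine of collagen, was at 297 CPM in control 1, 201 in control 2, 119 in USP12 1 and 117 in USP12 2, a log2 fold change of -1.08 (SE 0.37, edgeR quasi-likelihood adjusted p = 0.512). Without control replicate 1 these log2 fold changes were -0.64 and -0.77, both outside the criterion. The lysyl hydroxylases PLOD1 and PLOD3 had log2 fold changes of -1.10 and -0.91 outside the criterion, which were -0.31 and -0.54 without control 1 and -1.59 and -1.19 without control 2. SERPINH1, the collagen chaperone also called colligin, was at 116 CPM in control 1, 82.1 in control 2, 89.1 in USP12 1 and 110.1 in USP12 2 (log2 fold change 0.01), with overlapping groups. MIA3, which loads procollagen for export, was at 61.9 CPM in control 1, 105 in control 2, 43.3 in USP12 1 and 41.9 in USP12 2 (log2 fold change -0.97, SE 0.42, edgeR quasi-likelihood adjusted p = 0.684), with -1.30 when control 1 was left out and -0.53 when control 2 was.

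Outside the cell, none of the 4 tested genes of propeptide cleavage met the criterion. LOXL4, a lysyl oxidase that crosslinks matrix proteins, was at 3.63 CPM in control 1, 0.997 in control 2, 7.92 in USP12 1 and 9.70 in USP12 2, a log2 fold change of 1.94 (SE 0.74, edgeR quasi-likelihood adjusted p = 0.595). Its log2 fold change was 3.13 when control 1 was left out and 1.29 when control 2 was. LOXL2, another lysyl oxidase, was at 168 CPM in control 1, 48.2 in control 2, 173 in USP12 1 and 189.9 in USP12 2, and control replicate 2 was low (log2 fold change 0.75, SE 0.60, edgeR quasi-likelihood adjusted p = 0.912). Without control 1 the log2 fold change of LOXL2 was 1.91, and without control 2 it was 0.12. ITGA10, the alpha chain of a collagen-binding integrin, was at 10.7 CPM in control 1, 7.26 in control 2, 19.3 in USP12 1 and 24.2 in USP12 2, a log2 fold change of 1.28 (SE 0.47, edgeR quasi-likelihood adjusted p = 0.570). MMP2, a gelatinase that also cuts type IV collagen, was at 14.8 CPM in control 1, 17.8 in control 2, 58.8 in USP12 1 and 34.4 in USP12 2, a log2 fold change of 1.52 (SE 0.46, edgeR quasi-likelihood adjusted p = 0.436). All 3 tested proteases (MMP2, MMP14 and CTSK) were higher in both USP12 libraries than in both control libraries, as were 2973 of all 15222 tested genes. MMP2 alone met the criterion. The counts of MMP14 were 31 in control 1, 36 in control 2, 74 in USP12 1 and 68 in USP12 2. Those of CTSK were 24, 9, 51 and 40 in the same order. The log2 fold change of CTSK was 1.49, with 2.67 without control 1 and 0.84 without control 2. MMP1, MMP8, MMP9 and MMP13 were too low to test.

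**Figure D5:**
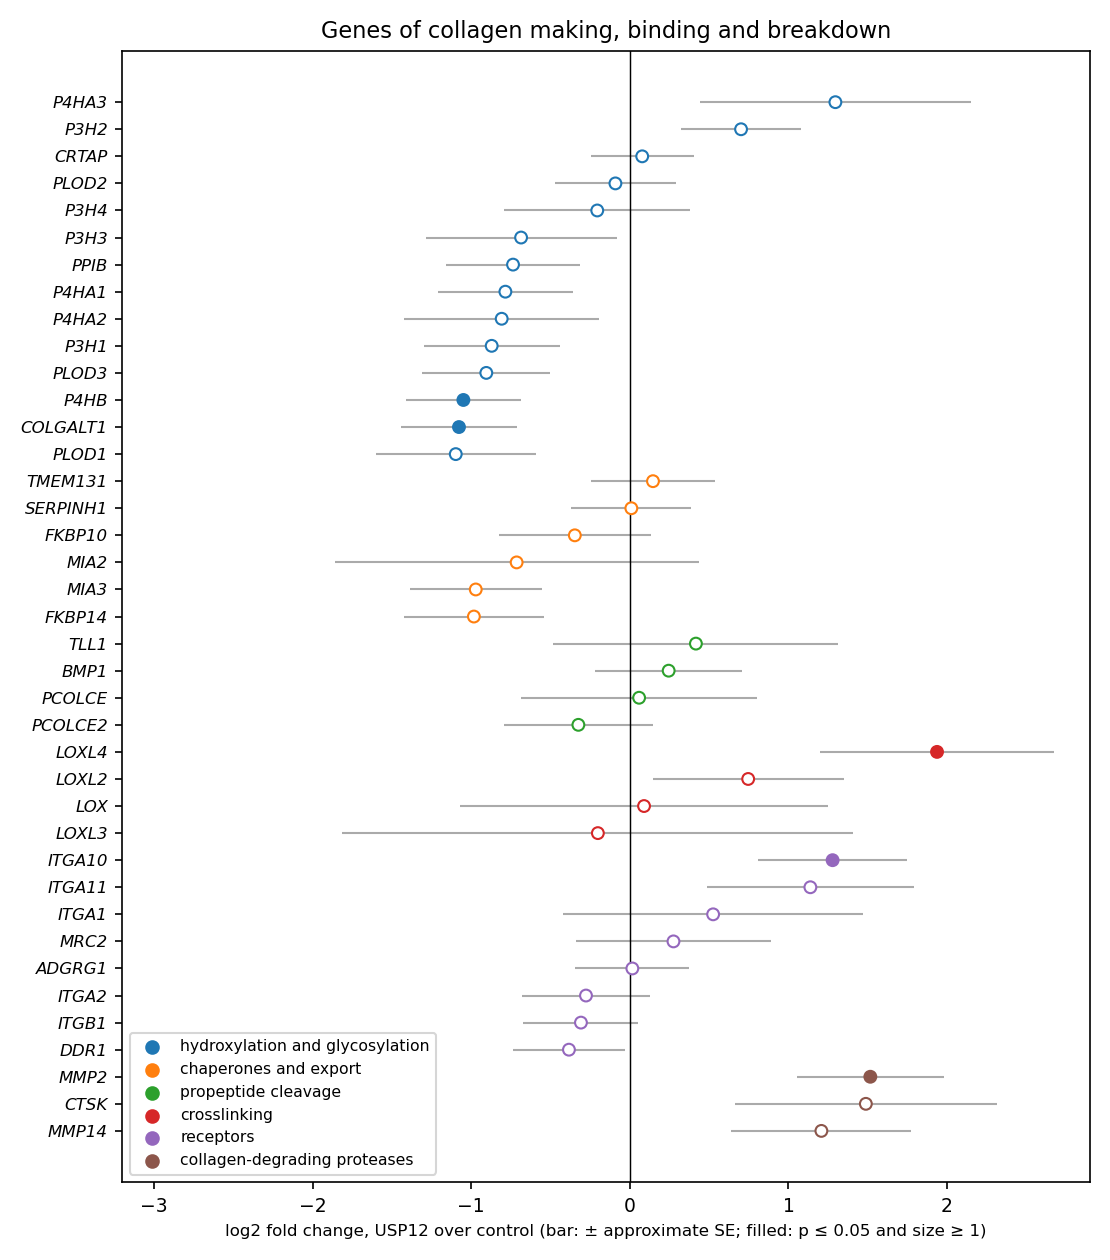
Log2 fold change, USP12 over control, of the 39 tested genes for making, binding and breaking down collagen, coloured by role, with bars for the approximate standard error; filled points met the criterion. P4HB (-1.05) and COLGALT1 (-1.08) lie to the left of 0, and LOXL4 (1.94), MMP2 (1.52) and ITGA10 (1.28) to the right.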

How the data were processed

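Counts of 4 A549 libraries were analysed. Per the authors' methods and labels, stranded mRNA libraries were sequenced, adaptors and ribosomal RNA reads removed with Seqtk, reads mapped to GRCh38 with HISAT2 2.0.4 and uniquely mapped fragments counted with StringTie 1.3.0. The deposited values are these raw counts for 50868 genes. The sources used here do not give the annotation release or whether strand was used.

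Genes were filtered (filterByExpr, leaving 15222), scaled by TMM and compared with the quasi-likelihood test of edgeR 4.0.16 in R 4.3.3, without covariates, with Benjamini-Hochberg adjustment over all tested genes. Approximate standard errors were taken as log2 fold change over root F. The tests were tried on simulated counts with the same dispersion for every gene and both groups. The replicates here differed with an SD of 1.32 for control and 0.62 for USP12 (log2, all tested genes). The simulation therefore does not measure the error of the tests on these data. TPM used GENCODE 44 canonical transcript lengths, found for 49659 genes, which also gave the positions and GC content. The members and lists were chosen with earlier results of these data known. Values of every library were given for collagen genes that met the criterion, were among the 10 highest per length or had a collagen neighbour within 100 kb (19 genes), and for list genes that met the criterion. Any other gene was picked with its values in view. Alternatives were other scalings, filters and tests (the exact test of edgeR, DESeq2 1.42.0), a replicate block, leaving out each library and, added after seeing the data, a GC content offset.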

Additional observations from a re-analysis of the deposited data

How the results depend on the processing

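The collagen results rest on 2 libraries a group, and low-count members are limited by counting error. The number of collagen genes with an adjusted p under 0.05 was 0 higher and 0 lower, with 10 at an unadjusted p under 0.05 (edgeR's quasi-likelihood test). It became 1 higher (COL5A1) without a filter on low counts, with the DESeq2 Wald test, under edgeR's exact test, under the replicate block, and under block plus GC offset. The count by the criterion, 5 higher and 5 lower, became 3 lower with at least 10 counts in every sample, where 5 genes had both USP12 libraries below both controls. With one library left out in turn, where the lone library of a group is assumed to vary like the other group, collagen genes numbered 0 to 8 in either direction at an adjusted p under 0.05, 0 to 10 higher and 0 to 8 lower by the criterion, and 9 to 14 higher and 8 to 14 lower without overlap. Their median log2 fold change went from -0.32 to 0.52. The all-gene counts of these fits, given below, moved widely too. The collagen counts with one library left out are therefore not read as a feature of collagen genes.

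For the 39 genes of the pathway list, the same fits gave 0 to 9 higher and 0 to 9 lower at an adjusted p under 0.05, 0 to 10 higher and 0 to 8 lower by the criterion, 9 to 18 higher and 13 to 22 lower without overlap, and a median from -0.37 to 0.28. The counts with one library left out are not read as a feature of this list, because the all-gene counts of the same fits moved widely too. Under the GC offset 5 of 38 tested list genes were higher by the criterion, with or without the block. Over all 15094 genes of these fits, 536 were higher by the criterion under the offset alone and 585 under offset plus block.

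Over all genes, 0 higher and 0 lower genes with an adjusted p under 0.05 (1155 at an unadjusted p under 0.05) became 1 lower with total counts only, 167 and 361 without a filter, 133 and 273 with DESeq2, 167 and 262 with the exact test, 153 and 251 under the replicate block, 6 and 16 under the GC offset, and 64 and 115 under both. By the criterion, 445 higher and 671 lower became 688 and 1173 without a filter. With one library left out, the adjusted calls were 15 to 2475 higher and 21 to 2542 lower, those by the criterion 171 to 2371 and 274 to 2049, and those without overlap 4076 to 6994 and 3773 to 6377. The log2 fold change of USP12 had an adjusted p under 0.05 without a filter (6.33), with DESeq2 (6.31), the exact test (6.32), the block (6.43), the GC offset (6.38) and block plus offset (6.37), and was 5.85 to 7.04 with one library left out.

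Among the genes named, those below changed sign, as did PLOD2 without control 1 (0.09). COL27A1 was at -0.0162 with DESeq2's size factors, -0.0243 with total counts only, -0.0161 with the DESeq2 Wald test and -0.00726 under the replicate block. Under the first 3 of these SERPINH1 was at -0.0148, -0.00555 and -0.0147. COL18A1 was at 0.0107 under the block, 0.33 under the GC offset and 0.33 under both. With one library left out, COL18A1 ranged from -0.50 to 0.54, COL27A1 from -0.22 to 0.20, COL4A3 from -0.11 to 0.47, COL6A1 from -0.24 to 1.38, COL6A2 from -0.66 to 2.24, COL11A1 from -3.01 to 1.03, COL11A2 from -1.02 to 0.0402, COL12A1 from -0.41 to 0.28, COL16A1 from -0.15 to 0.56 and SERPINH1 from -0.21 to 0.28. The cause of these changes was not tested. The 10 collagen genes that met the criterion kept their sign under every alternative that gave them a value. In each of them the groups did not overlap, so leaving out 1 library could hardly change the sign. The other alternatives used the same counts, so the kept signs are no separate evidence. The adjusted p of COL5A1 over all alternatives ranged from 0.00173 to 1.000 (edgeR and DESeq2).

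The replicate numbers are shared by the groups, but no source says that they mark a shared culture. Same-numbered libraries deviated together weakly (correlation across genes 0.152), so no pairing was assumed, and whether they share a culture or batch was not tested. The fit with the block had infinite prior degrees of freedom, against 4.145 without it. The same held for the fit without a filter on low counts and for those without either USP12 library. In all of these fits, genes at one abundance shared a variance.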
